A study of Rattus norvegicus with 9 samples.

Results

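Ceramide and sphingosine phosphate genes were followed in the right ventricles of male SD rats. The list named 10 genes, and 8 of them had a feature that the array annotation assigns to that gene alone. These were Acer2, Asah1, Cers2, Sphk1, Sphk2, Sgpl1, S1pr1 and S1pr2, each with 1 feature, out of 14506 genes with such a feature and 29215 features in all. Acer3 and S1pr3 had none and were not analysed here. Where a gene has several features, the one with the highest mean over the arrays is taken, a choice that did not arise for these 8 genes. Acer2 was selected on its deposited values in the F+, F- and Sham groups, and these are therefore given as a description, without a test. The other genes were named for their place in the same pathway, at a time when results of these data were known.

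The expression levels were measured on 9 Affymetrix GeneChip Rat Gene 1.0 ST arrays. The Sham group consisted of sham-operated rats. The F- and F+ groups consisted of rats with pulmonary artery banding (PAB), an operation that constricts the pulmonary artery and so loads the right ventricle with pressure. At 4 weeks after PAB the banded hearts were divided by histology, with the fibrotic area above 6.5% in the F+ group and below it in the F- group. Each group had 3 arrays. No genetic change is named for any group, and age at sampling is not given for these hearts in the sources used here. Whether a group's 3 arrays stand for 3 animals is not stated, so a p-value covers the spread from array to array alone, and that spread may be technical.

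The authors deposited 1 value per feature and array, between 1 and 190.4, with array medians of 33.4 to 33.9. The scale of these values is not stated in the sources used here. A difference is given as one mean of log2 values minus another, and folds hold only on the deposited scale. All 6 cardiomyocyte markers lay between 135.1 and 179.9, above at least 99.2% of all features, and the tissue was labelled as right ventricle. Sham array 2 and F- array 1 stood apart from the other arrays of their own groups in atrial genes. The summed value of 4 atrial markers was 447 on Sham array 2 against 242.9 and 245.9 on the other Sham arrays, and 303.5 on F- array 1 against 225.9 and 235.9 on the other F- arrays. The F+ arrays had sums of 321, 321.1 and 293.3, so F- array 1 lay within the range of the F+ group. Because they differed within their groups, results for Acer2 and Sphk1 are also given without those 2 arrays. All F+ arrays were kept there. Precision is limited by there being 3 arrays in a group.

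Ceramide is the lipid at the centre of sphingolipid metabolism, made by ceramide synthases and split into sphingosine and a fatty acid by ceramidases. Sphingosine kinases phosphorylate sphingosine, and sphingosine phosphate lyase breaks the phosphate down irreversibly. Sphingosine phosphate also leaves the cell and binds G protein-coupled receptors on endothelium, muscle and fibroblasts. Ceramide is best known in the heart as a lipid that accumulates under metabolic overload, and sphingosine phosphate as a signal for vessel integrity and for the activation of fibroblasts.

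The sequence before the start of the Acer2 gene is shown because Acer2 was the member whose 3 groups were fully separated, and that of Cers2 because it makes ceramide rather than splitting it and its groups overlapped in every comparison. Both come from RefSeq (assembly GRCr8). The Acer2 stretch is chr5:106437598-106437772 (plus strand) and ends at the base before the annotated gene, which spans 106437773 to 106488572. The Cers2 stretch is chr2:185579261-185579435 (plus strand) and ends 75 bases before its gene. Capitals mark GGGCGG, searched on both strands, so that it also appears as CCGCCC.
Acer2: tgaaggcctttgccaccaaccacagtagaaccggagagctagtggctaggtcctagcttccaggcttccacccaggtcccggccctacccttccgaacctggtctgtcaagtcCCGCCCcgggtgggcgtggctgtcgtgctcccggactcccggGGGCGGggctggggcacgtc
Cers2: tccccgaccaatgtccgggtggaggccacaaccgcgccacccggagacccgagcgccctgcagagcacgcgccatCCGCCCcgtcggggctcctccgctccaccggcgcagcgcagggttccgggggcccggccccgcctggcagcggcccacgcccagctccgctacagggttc
Acer2 held 2 such matches in 175 bases and Cers2 held 1. Both stretches are the first 175 bases of a RefSeq promoter window. Of 33469 windows cut in the same way, 20.1% held at least 1 and 7.59% at least 2. The GC content was 67.4% for Acer2 and 77.1% for Cers2, and the median of all windows was 50.3%. A match describes these letters only.

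The expression levels of Acer2 mRNA were highest in the F+ group, lowest in the F- group and in between in the Sham group. Acer2 encodes alkaline ceramidase 2, an enzyme of the Golgi that splits ceramide. Its deposited value was 77, 74.1 and 80.0 (F+), 67, 67 and 66.9 (Sham) and 60.8, 56.6 and 60.3 (F-). Every F+ array lay above every Sham array, and every Sham array above every F- array. The group means were 77.0 ± 2.95 for F+, 67.0 ± 0.0577 for Sham and 59.2 ± 2.29 for F- (SD, n = 3 each).

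Set against the F- group, the F+ group had an Acer2 value higher by 0.38 on the log2 scale (standard error 0.038), which is 1.30-fold on the deposited scale. It was 0.20 between the F+ and Sham groups and -0.18 between the F- and Sham groups, each with a standard error of 0.038. The banded hearts thus lay on both sides of the Sham hearts, whose arrays both differences share. Over both PAB groups together the mean was 68.1, against 67.0 in the Sham group, a log2 difference of 0.012, and the 6 PAB arrays spanned the Sham arrays. Without Sham array 2 and F- array 1 the log2 differences were 0.40, 0.20 and -0.20.

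**Figure D1:**
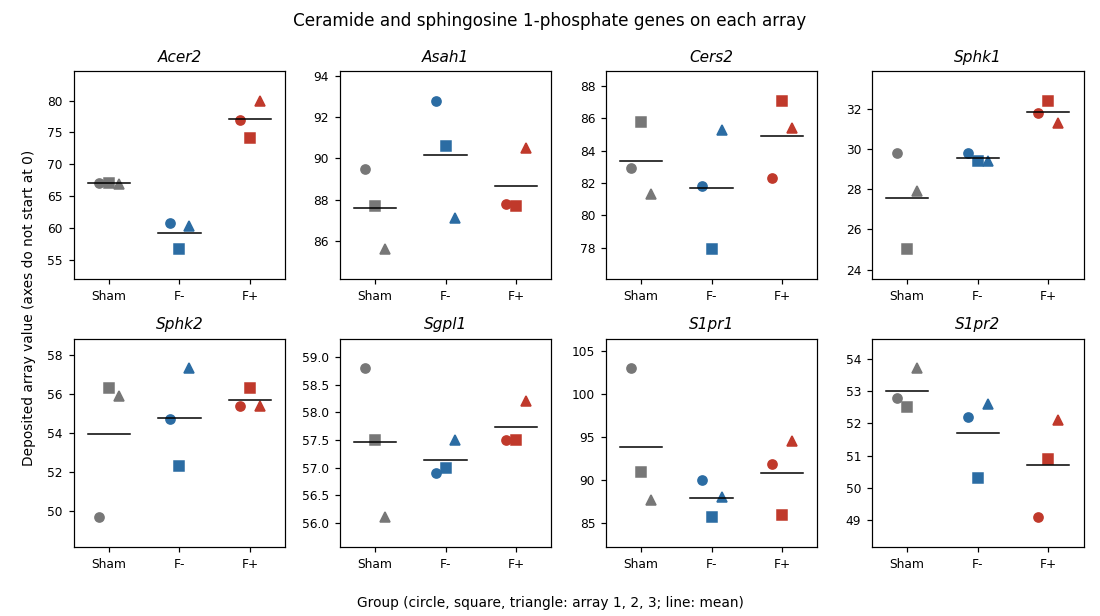
Deposited values (vertical axes, not from 0) of 8 genes on each array by group, where the circle, square and triangle stand for arrays 1, 2 and 3 and the line for the mean. The 3 groups of Acer2 do not overlap, with 74.1 to 80.0 in the F+ group against 56.6 to 60.8 in the F- group, and the F+ arrays of Sphk1 lie above the other 6 arrays.

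The Sham arrays of Acer2 lay within 0.1 of each other, and other features had groups as narrow. A group range of 0.1 or less was found for 4.23% (Sham), 3.29% (F-) and 3.68% (F+) of all features. Values also repeated exactly between groups, as 57.5 did on 4 of 9 arrays for Sgpl1 and, in genes picked for their repeats, 23.2 on 6 of 9 arrays for Degs2 and 18.3 on 6 of 9 for Cers3. The standard errors above use the spread pooled over the 3 groups, which limma moderates towards that of all features. The complete order of the Acer2 groups, F+ above Sham above F-, was seen after its values were known. It was found for 36 of 29215 features (0.123%), and the opposite complete order for 34 (0.116%). Among genes with 1 symbol, 21 showed it, and in these Acer2 had the second highest difference between the F+ and F- groups after Hbb, which encodes a beta-globin. Of 14506 genes, 43 had a higher log2 difference between the F+ and F- groups than Acer2.

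The genes whose log2 values over the 9 arrays were most like those of Acer2, among 14505 others, were Sh2b2 (Pearson's r = 0.968), Fli1 (0.962), Fam219a (0.955), Cep89 (0.953) and Avpr1a (0.945). These are descriptions over arrays that share 1 normalization. Fli1, a transcription factor of endothelial and blood cells, had 69.9 to 73.6 on the F+ arrays, 68.6 to 69.1 on the Sham arrays and 66.5 to 67.1 on the F- arrays. Avpr1a, a vasopressin receptor, had 32.8 to 34.1, 32.7 on all 3 Sham arrays and 30.5 to 31.9. Their differences were smaller than that of Acer2, at 0.11 for Fli1 and 0.10 for Avpr1a on the log2 scale between the F+ and F- groups. Of the other members, Cers2 came nearest to Acer2 (r = 0.549, place 1462), followed by Sphk1 (r = 0.415). Asah1, the other ceramidase among the members, had an r of -0.217.

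Markers of several other cell types also had higher summed values in the F+ than in the F- group. The sum of 4 red cell markers was 123.5 to 188.7 on the F+ arrays, 105.4 to 115.6 on the Sham arrays and 97.4 to 102 on the F- arrays, again without overlap, and 4 of 4 were higher in the F+ than in the F- group. The red cell sum thus had the same complete order as Acer2, while 3 of 4 of its markers were higher in the F+ than in the Sham group. Hbb, the largest of them, ran from 39.6 to 107.8 over the arrays. The sum of 6 smooth muscle and pericyte markers was 483.8 to 502.5 in the F+ group against 465.4 to 472.4 in the F- group, with 6 of 6 higher, and 476 to 485.1 in the Sham group. That of 6 macrophage markers was 379.4 to 417.7 in the F+ group against 303.6 to 383.5 in the F- group, with 6 of 6 higher. The Sham arrays lay above every F- array for smooth muscle, and at 323.9 to 342.7 for macrophages. For 5 mast cell markers the sum was 127.1 to 160.8 (F+) against 116.4 to 127 (F-), with 4 of 5 higher. The sum of 6 cardiomyocyte markers was lower, at 912 to 922.9 against 923.4 to 946.1, with 0 of 6 higher. The macrophage sums overlapped between the F+ and F- groups, and so did those of the remaining cell types. That of 6 fibroblast markers was 516.7 to 552.3 against 526.1 to 537.3, with 3 of 6 higher. For 5 endothelial markers it was 391.8 to 399.9 against 380.4 to 393.1, with 4 of 5 higher. For 4 atrial markers it was 293.3 to 321.1 against 225.9 to 303.5, with 2 of 4 higher. No marker was at 0, and the lowest was Ahsp at 4.7 to 10.9. Of 42 markers of 8 cell types, 0 passed limma's adjusted threshold of 0.05 between the F+ and F- groups, and 14 had an unadjusted p under 0.05. Over all features, 1 of 29215 passed there and 7.41% had an unadjusted p under 0.05. Their part in the differences of Acer2 was not tested, and in whole tissue fewer cells of a type and less RNA per cell cannot be told apart.

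**Figure D2:**
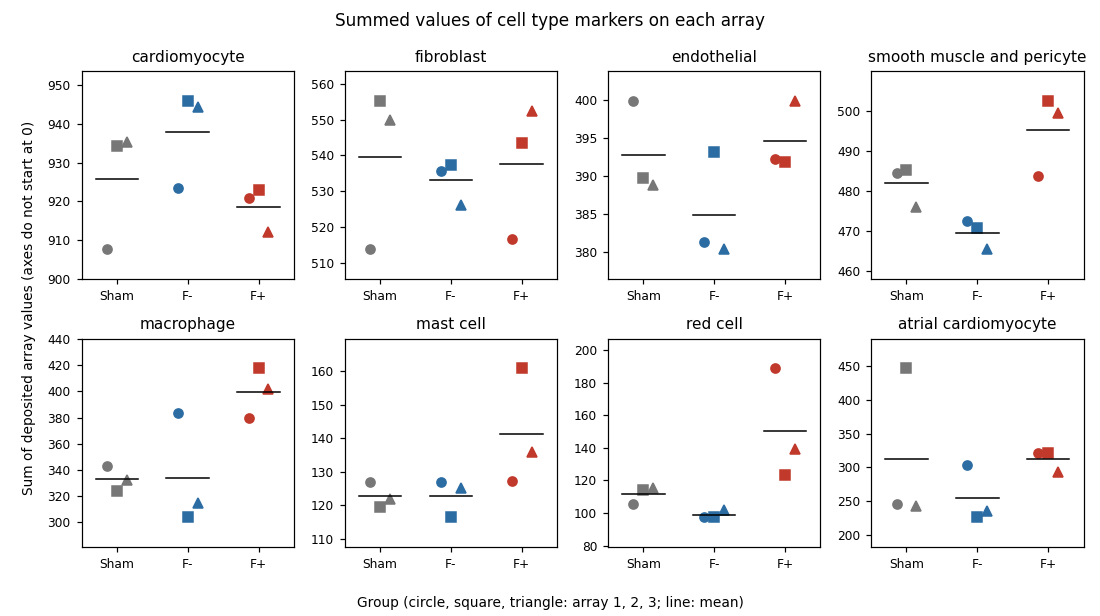
Sums of deposited values (vertical axes, not from 0) of the markers of 8 cell types on each array, with symbols and lines as for the single genes. The red cell sum is 123.5 to 188.7 in the F+ group against 97.4 to 102 in the F- group, and the atrial sum is 447 on Sham array 2.

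In contrast to Acer2, the other ceramidase and the ceramide synthase among the members had overlapping values in all groups. Asah1 encodes acid ceramidase, which splits ceramide in lysosomes. Its values were 87.8, 87.7 and 90.5 (F+), 92.8, 90.6 and 87.1 (F-) and 89.5, 87.7 and 85.6 (Sham). The F+ group differed from the F- group by -0.024 on the log2 scale (95% confidence interval, CI, -0.099 to 0.051, adjusted p = 0.873 from limma). The F- group differed from the Sham group by 0.041 (95% CI -0.034 to 0.12, adjusted p = 0.766). These values moved to -0.0029 and 0.020 without F- array 1, and to -0.049 and 0.066 without F- array 3. All 3 groups lay within a narrow band, and the F- group had the highest mean of Asah1 but the lowest of Acer2.

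Cers2 encodes ceramide synthase 2, which makes ceramides with very long acyl chains. It gave 82.3, 87.1 and 85.4 (F+), 81.8, 77.9 and 85.3 (F-) and 82.9, 85.8 and 81.3 (Sham). Its group means had the same order as those of Acer2, but the groups overlapped. The F+ group lay 0.057 above the F- group on the log2 scale (95% CI -0.038 to 0.15, adjusted p = 0.762 from limma). This was 0.024 without F- array 2 and 0.089 without F- array 3.

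The expression levels of Sphk1 mRNA were higher on each F+ array than on any other array, although the difference did not pass over all features. Sphk1 encodes sphingosine kinase 1, which is inducible by growth factors and cytokines. The values were 31.8, 32.4 and 31.3 (F+), 29.8, 29.4 and 29.4 (F-) and 29.8, 25.0 and 27.9 (Sham). The F- arrays lay close together, and the highest Sham array equalled the highest F- array. The mean of Sphk1 over the 9 arrays lay above 42.9% of all features, the lowest place of the 8 genes. Between the F+ and Sham groups the log2 difference was 0.21 (standard error 0.058, 95% CI 0.077 to 0.35), where limma gave a p of 0.00683 before and an adjusted p of 0.604 after adjustment. An exact permutation test (two-sided) gave p = 0.1, the lowest value possible with 3 arrays in each group. Against the F- group the F+ mean was higher by 0.11 (adjusted p = 0.704 from limma, standard error 0.058). The mean of the F- group exceeded that of the Sham group by 0.10 (adjusted p = 0.743 from limma). Sham array 2 held the lowest value. Without it the F- group lay 0.035 above the Sham group (0.16 without Sham array 1) and the F+ group 0.14 above it, and without Sham array 2 and F- array 1 the F+ group lay 0.11 above the F- group (adjusted p = 0.414 from limma).

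Both PAB groups together had a higher mean of Sphk1 than the Sham group, 30.7 against 27.6, a log2 difference of 0.16 (adjusted p = 0.726 from limma). Its exact permutation p (two-sided) was 0.0595, and 0.0119 is the lowest possible with 6 and 3 arrays. Without Sham array 2 this difference was 0.089. Sphk2 encodes sphingosine kinase 2, which is found mostly in the nucleus and mitochondria. It gave 55.4, 56.3 and 55.4 (F+), 54.7, 52.3 and 57.3 (F-) and 49.7, 56.3 and 55.9 (Sham). The groups of Sphk2 overlapped, with a log2 difference of 0.025 between the F+ and F- groups (95% CI -0.10 to 0.15, adjusted p = 0.924 from limma). Sham array 1 alone was low, and without it the F+ group lay at -0.010 from the Sham group in place of 0.048.

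Sgpl1, which encodes sphingosine phosphate lyase, had the narrowest group means of the 8 genes. It gave 57.5, 57.5 and 58.2 (F+), 56.9, 57 and 57.5 (F-) and 58.8, 57.5 and 56.1 (Sham). The highest and the lowest group mean of Sgpl1 differed by 0.015 on the log2 scale, against 0.38 for Acer2, 0.21 for Sphk1 and a median of 0.072 over all features. For F+ against F- the 95% CI of Sgpl1 was -0.043 to 0.073.

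**Figure D3:**
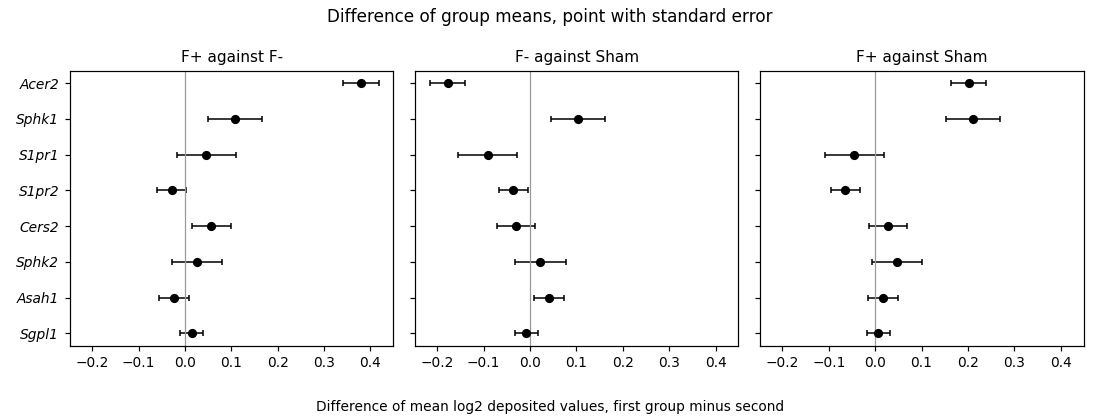
Log2 differences (horizontal axis) of 8 genes between the F+ and F- groups, the F- and Sham groups and the F+ and Sham groups, with standard errors as bars. The comparisons with the Sham group share the Sham arrays. Acer2 lies at 0.38 on the left and at -0.18 in the middle, and Sgpl1 at 0.015 on the left.

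Both receptors of sphingosine phosphate had their highest group mean in the Sham group, and neither difference passed limma. For S1pr1 most of the difference came with 1 Sham array, and for S1pr2 the F+ arrays lay below all Sham arrays. S1pr1 encodes the receptor through which sphingosine phosphate tightens the endothelial barrier. It gave 91.9, 86 and 94.6 (F+), 90.0, 85.7 and 88.1 (F-) and 103, 90.9 and 87.7 (Sham). The log2 difference was -0.091 between the F- and Sham groups (standard error 0.063, adjusted p = 0.754 from limma) and -0.045 between the F+ and Sham groups (adjusted p = 0.879). Sham array 1 decided these values. Without it the F- group lay at -0.022 and the F+ group at 0.024, and without Sham array 3 they lay at -0.14 and -0.092. The sum of 5 endothelial markers was 399.8 on Sham array 1, against 389.8 and 388.8 on the other Sham arrays. It was also 399.9 on F+ array 3, where S1pr1 was 94.6, and 393.1 on F- array 2, where S1pr1 was 85.7. The part of endothelial cells in S1pr1 was not tested.

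S1pr2 encodes another receptor of sphingosine phosphate. The values were 49.1, 50.9 and 52.1 (F+), 52.2, 50.3 and 52.6 (F-) and 52.8, 52.5 and 53.7 (Sham). Every F+ array lay below every Sham array, and the F- arrays overlapped both. Between the F+ and Sham groups the log2 difference of S1pr2 was -0.064 (standard error 0.031, 95% CI -0.14 to 0.0077, adjusted p = 0.690 from limma), with an exact permutation p of 0.1 (two-sided). Between the F- and Sham groups it was -0.036 (adjusted p = 0.776 from limma). Without F+ array 1 the former was -0.041, and without F- array 2 the latter was -0.016.

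Of the members other than Acer2, 0 of 7 passed limma in any of the comparisons. The features passing were 1 of 29215 between the F+ and F- groups (0.00342%) and 0 (0%) between the F- and Sham, the F+ and Sham, and the PAB and Sham groups. At an unadjusted p under 0.05 there were 0 of 7 between the F+ and F- groups, where 7.41% of all features lay, and 0 of 7 between the F- and Sham groups, where 6.03% lay. There was 1 of 7, Sphk1, both between the F+ and Sham groups (7.4% of all features) and between the PAB and Sham groups (6.29%). The arrays did not overlap for 1 of 7 genes, Sphk1, between the F+ and F- groups (9.74% of all features, 4.46% with F+ higher and 5.28% with F+ lower). They did so for 0 of 7 between the F- and Sham groups (9.79%, with F- higher in 5.15% and lower in 4.64%). Between the F+ and Sham groups 2 of 7 did not overlap (12.2%), Sphk1 with F+ higher (5.69%) and S1pr2 with F+ lower (6.56%). In the PAB groups against the Sham group 0 of 7 were separate (2.63%). The median log2 difference of the 7 genes was 0.025 between the F+ and F- groups and -0.0081 between the F- and Sham groups, and over all features it was -0.0023 and -0.0025.

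Of 45 other genes of sphingolipid metabolism and signalling, 35 had a feature of their own, and none of the 35 passed limma in any comparison. At an unadjusted p under 0.05 there were 2 of 35 (5.71%, against 7.41% of all features) between the F+ and F- groups and 2 (5.71% against 6.03%) between the F- and Sham groups. There were 4 (11.4% against 7.4%) between the F+ and Sham groups and 3 (8.57% against 6.29%) between the PAB and Sham groups. Their median log2 difference between the F+ and F- groups was 0.012, with 23 above 0 (65.7%, against 48.2% of all features) and 12 below, and all lay between -0.11 and 0.16. None of them reached the difference of Acer2, but Acer2 was selected on these values and they were not, so the comparison is a description only.

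Asah2 and Plpp3 had the smallest p of the 35 genes between the PAB and Sham groups, in opposite directions. Asah2 encodes neutral ceramidase, the form at the plasma membrane. It gave 57.4, 58.1 and 55.2 (F+), 57.7, 55.6 and 55.2 (F-) and 49.4, 52.2 and 54.2 (Sham). All 6 PAB arrays of Asah2 lay above all Sham arrays, as in 1.09% of all features. The mean log2 value was 0.12 higher with PAB (standard error 0.035, limma adjusted p = 0.726). The exact permutation p was 0.0119 (two-sided), again the lowest possible, and it is not adjusted for the choice of the gene among 35. Of the 35 genes, 2 had PAB arrays separate from the Sham arrays, against 2.63% of all features. Unlike Acer2, Asah2 had nearly the same mean in the F+ and F- groups, 56.9 and 56.2.

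Plpp3 encodes a lipid phosphate phosphatase that removes the phosphate from sphingosine phosphate and lysophosphatidic acid outside the cell. It gave 104.6, 101.7 and 103.2 (F+), 101, 105.9 and 106.6 (F-) and 109.7, 109.1 and 111.7 (Sham). All 6 PAB arrays lay below all Sham arrays, as in 1.53% of all features. The log2 difference was -0.086 (standard error 0.025, adjusted p = 0.726 from limma), with an exact permutation p of 0.0119 (two-sided). That p is likewise not adjusted for the choice of the gene. Cers4, which encodes another ceramide synthase, gave 66.7, 67.2 and 70.7 (F+), 67.3, 75.8 and 75.8 (F-) and 75, 79.6 and 74.4 (Sham). The F+ arrays of Cers4 lay below the Sham arrays, with a log2 difference of -0.16 (standard error 0.054, adjusted p = 0.623 from limma). F- array 1 lay with the F+ arrays. Such a separation, with F+ lower, was found for 6.56% of all features. Of the 35 genes, 4 had F+ arrays separate from the Sham arrays in either direction, against 12.2% of all features.

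In F+ against F-, the smallest p of the 35 genes belonged to enzymes that use sphingomyelin and to ceramide kinase. Smpd2, which encodes a neutral sphingomyelinase, gave 38.9, 41.7 and 39.1 (F+) and 41.7, 43.4 and 43.9 (F-), a log2 difference of -0.11 (standard error 0.036, adjusted p = 0.635 from limma). Smpd3, which encodes another neutral sphingomyelinase, gave 27.7, 27.3 and 27.1 (F+) and 26.2, 25.8 and 25.6 (F-), a difference of 0.081 (adjusted p = 0.671 from limma). The groups of Smpd3 did not overlap, with F+ higher as in 4.46% of all features, and those of Smpd2 met at 41.7. Of the 35 genes, 2 did not overlap between the F+ and F- groups in either direction, against 9.74% of all features. Cerk, which encodes ceramide kinase, gave 61.2, 60.0 and 58.9 (F+) and 59.5, 55.7 and 55.0 (F-) (log2 difference 0.082, adjusted p = 0.674 from limma). Sptssb, which encodes a small subunit of serine palmitoyltransferase, gave 15.1, 17.9 and 17.6 (F-) and 17.6, 17.6 and 18.9 (Sham) (log2 difference -0.10, adjusted p = 0.754 from limma), and F- array 1 alone was low. Without that array the Sptssb difference was -0.022. Signals were low for Smpd3, with a mean above 36.6% of all features, and for Sptssb, above 18.2%.

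**Figure D4:**
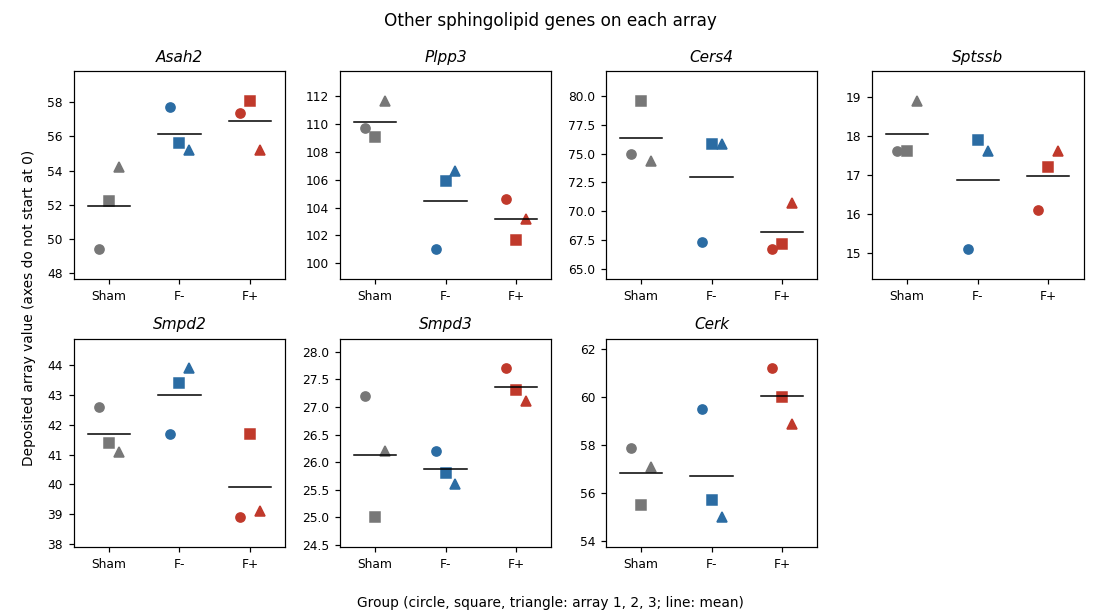
Deposited values (vertical axes, not from 0) of 7 other sphingolipid genes on each array, with symbols and lines as for the members. The 6 PAB arrays of Asah2 lie at 55.2 to 58.1, above the Sham arrays at 49.4 to 54.2, and those of Plpp3 at 101 to 106.6, below the Sham arrays at 109.1 to 111.7.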

How the data were processed

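Right ventricles were measured on Affymetrix arrays, 3 in each of 3 groups. The authors deposited 1 signal intensity per feature and array, with a normalization not given in the sources used here. Per the methods, hybridizations were run 3 times and averaged. Their log2 was taken, and limma 3.58.1 (R 4.3.3) fitted 1 mean per group to 9 arrays by lmFit, followed by eBayes, and Benjamini-Hochberg adjustment over all 29215 features at 0.05. The PAB mean is that of the F- and F+ means. Of the features, 15310 carry 1 gene symbol, and 15279 of these matched GRCr8 by gene ID. Same-numbered arrays did not deviate together (r of -0.21 to 0.053), so the numbers were not used as pairs.

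The members, lists and tests were chosen with earlier results of these data known. Genes named besides the members are the 3 other pathway genes with the smallest unadjusted p in each comparison and the 5 most like Acer2. Fli1 and Avpr1a were picked from those 5, and Hbb, Degs2 and Cers3 outside the rule, after their values were seen. The alternatives were quantile normalization, median centring, square roots, no transformation, leaving out dim features, features with 1 symbol only, the mean of a gene's features, a replicate block, only the groups compared, trend and robust priors, and leaving out arrays. The fit was tested on simulated data. Figures used matplotlib 3.10.9 under Python 3.11.15. RT-PCR and cell culture data were not analysed here.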

Additional observations from a re-analysis of the deposited data

How the results depend on the processing

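The differences of Acer2 without 1 array were 0.35 to 0.41 between the F+ and F- groups, -0.20 to -0.15 between the F- and Sham groups, 0.17 to 0.23 between the F+ and Sham groups and -0.0020 to 0.028 between the PAB and Sham groups. With square roots in place of log2 values they were 1.08, -0.49, 0.59 and 0.052, in the same order. If those square roots are log2 values, Acer2 was 2.11-fold higher in the F+ than in the F- group, in place of 1.30-fold. Acer2 is not among the genes that the paper lists as more than 1.5-fold higher in F+ than in F- hearts. The size of its differences thus depends on the scale, which is not stated. Among the members other than Acer2, which was given no test, and the other pathway genes, none passed in any setting run. The lowest adjusted p of a tested member in any setting was 0.334 from limma (Sphk1, F+ against Sham). The replicate number as a block turned 1 passing feature between the F+ and F- groups into 0 and changed no call of a member. The arrays only share a number.

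Of 40 tested differences, 29 kept their direction in every setting. The 40 were those of the members other than Acer2 and of the 3 other pathway genes with the smallest unadjusted p in each comparison. The other 11 turned in at least 1, and all 11 were differences of members. The pathway genes had been picked for their small p, which favours a kept direction. After median centring Sgpl1 turned to 0.00043 between the F- and Sham groups and to 0.0072 between the PAB and Sham groups, and Cers2 to 0.0067 between the PAB and Sham groups. With Sham array 2 and F- array 1 left out, which was chosen after seeing the data, the PAB differences were 0.0014 for Sgpl1 and 0.019 for Cers2. Without 1 array, Sphk2 ranged from -0.0074 to 0.058 (F+ against F-), -0.036 to 0.055 (F- against Sham), -0.010 to 0.080 (F+ against Sham) and -0.023 to 0.067 (PAB against Sham). Sgpl1 ranged from -0.025 to 0.0085 (F- against Sham), -0.010 to 0.024 (F+ against Sham) and -0.018 to 0.016 (PAB against Sham). S1pr1 ranged from -0.092 to 0.024 (F+ against Sham) and -0.12 to 0.00067 (PAB against Sham), and Cers2 from -0.062 to 0.0038 (F- against Sham) and -0.019 to 0.020 (PAB against Sham). The cause was not tested.

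Over all features, 1 passed between the F+ and F- groups. This became 3 without a transformation, without the dimmest features, with 1 symbol only, with a trend and robust priors and without the 2 arrays named above. It became 0 with only the groups compared, and was 0 to 3 without 1 array. Between the F+ and Sham groups 0 became 1 with only the groups compared and without those 2 arrays. For the PAB groups, only the groups compared is the same fit.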
